A study of Mus musculus with 12 samples.

Results

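The genes described here are 10 mouse genes of mucus and of the mucus-making goblet cell: the gel-forming mucins *Muc5ac* and *Muc5b*, the transcription factors *Spdef* and *Foxa3*, the mucin-folding protein *Agr2*, and the secreted products *Clca1*, *Fcgbp*, *Tff2*, *Itln1* and *Bpifb1*. They were chosen by symbol from a list, and each matched 1 Ensembl identifier among the 54532 genes of the read count table. All 10 passed the filter on low counts that left 17473 genes for testing. Airway mucus is a gel of very large, heavily glycosylated mucins. In the mouse airway MUC5B is the mucin made at rest, and MUC5AC is made mostly by goblet cells that appear in allergic inflammation. Interleukin-13, acting through STAT6, drives club cells of the mouse airway toward this goblet state, in which SPDEF and FOXA3 turn on mucin and mucus-packaging genes.

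RNA was sequenced from whole mouse lung in 4 groups of 3 libraries. CKO_CRE and CKO_PBS came from Cc10-Cre;Rhoafl/fl mice treated with CRE or with PBS, and WT_CRE and WT_PBS came from Cc10-Cre mice treated with CRE or with PBS. All 4 groups therefore carried Cc10-Cre, a recombinase transgene driven by the promoter of the club cell gene *Scgb1a1*, and both treatments were given to both genotypes. The labels do not spell out the treatment CRE, which is kept as a label and is not the recombinase, and they give no age, strain, dose or time. Whether the libraries came from separate mice is not stated, so the p-values measure the spread between these libraries. Library totals ran from 16250674 to 21559210 counts. *Rhoa*, the floxed gene, was not called different between genotypes in whole lung (log2 fold change CKO over WT -0.07 ± 0.10 under CRE and -0.10 ± 0.10 under PBS). Its counts are of the whole gene in all lung cells and do not check the deletion in club cells. By Y-linked and *Xist* counts, replicates 2 and 3 of CKO_CRE, replicates 2 and 3 of WT_CRE and replicate 2 of CKO_PBS were female, and WT_PBS was all male. The CKO_CRE libraries also stood apart from each other, at 8.58, 50.6 and 27.9 on a first principal component that held 69.0% of the variance of the most variable genes.

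The members lie on 6 chromosomes of GRCm38, and the exons of none overlap those of another gene. *Muc5ac* (chr7:141788972-141819231, plus strand) and *Muc5b* (chr7:141839070-141873084, plus strand) are neighbours in the cluster of gel-forming mucins, between *Muc2* and *Tollip*. *Foxa3* (chr7:19013284-19023538, minus strand) and *Fcgbp* (chr7:28071236-28120862, plus strand) lie elsewhere on the same chromosome. *Spdef* (chr17:27714352-27728955) and *Tff2* (chr17:31141049-31144282) are on the minus strand of chromosome 17. *Clca1* is at chr3:145003817-145032776 on the minus strand, *Agr2* at chr12:35992907-36004087 on the plus strand, *Itln1* at chr1:171518122-171535294 on the minus strand and *Bpifb1* at chr2:154190818-154220369 on the plus strand. The closest transcript of another gene shared 91.9% identity over 828 bases with *Fcgbp* and 93.1% over 317 bases with *Itln1*, under the 98% identity at which reads were treated as uncertain.

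Promoter windows of 300 bases, from 250 before to 50 after an annotated start, were found in the RefSeq table (GRCm38.p6) for 6 of the 10 members, with 7 windows in all. *Muc5ac*, *Muc5b*, *Clca1* and *Tff2* had none there. The windows shown are those of *Spdef* and *Bpifb1*, which hold the letters of a forkhead motif, the class that *Foxa3* belongs to. Those of *Agr2* and *Itln1*, members with large CRE responses, are also shown and hold no match to the letters searched. Only the exact letters given below were searched, so other spellings of these motifs would be missed. Capitals mark motif matches.
Spdef, chr17 minus strand: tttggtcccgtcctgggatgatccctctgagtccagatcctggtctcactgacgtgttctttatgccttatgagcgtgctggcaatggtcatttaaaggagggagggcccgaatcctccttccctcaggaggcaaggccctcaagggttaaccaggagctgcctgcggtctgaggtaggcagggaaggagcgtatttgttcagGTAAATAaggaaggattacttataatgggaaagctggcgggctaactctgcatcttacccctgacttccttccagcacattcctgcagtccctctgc
Bpifb1 first start, chr2 plus strand: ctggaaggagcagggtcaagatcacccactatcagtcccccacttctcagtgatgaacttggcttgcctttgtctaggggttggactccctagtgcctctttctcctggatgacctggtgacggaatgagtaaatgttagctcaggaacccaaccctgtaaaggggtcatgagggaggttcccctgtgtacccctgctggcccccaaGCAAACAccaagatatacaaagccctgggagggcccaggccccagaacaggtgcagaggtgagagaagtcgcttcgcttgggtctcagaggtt
Bpifb1 second start, chr2 plus strand: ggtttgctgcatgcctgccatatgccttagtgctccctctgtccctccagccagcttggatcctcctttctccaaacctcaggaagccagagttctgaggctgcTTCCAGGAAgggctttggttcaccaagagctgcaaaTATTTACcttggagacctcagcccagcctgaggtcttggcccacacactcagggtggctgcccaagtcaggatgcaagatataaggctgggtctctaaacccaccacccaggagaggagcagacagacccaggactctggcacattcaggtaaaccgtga
Agr2, chr12 plus strand: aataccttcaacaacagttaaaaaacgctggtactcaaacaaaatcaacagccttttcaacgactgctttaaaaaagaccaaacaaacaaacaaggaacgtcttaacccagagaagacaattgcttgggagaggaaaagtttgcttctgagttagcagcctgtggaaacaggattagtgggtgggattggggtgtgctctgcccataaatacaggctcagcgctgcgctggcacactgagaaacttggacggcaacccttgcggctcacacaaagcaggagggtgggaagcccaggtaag
Itln1, chr1 minus strand: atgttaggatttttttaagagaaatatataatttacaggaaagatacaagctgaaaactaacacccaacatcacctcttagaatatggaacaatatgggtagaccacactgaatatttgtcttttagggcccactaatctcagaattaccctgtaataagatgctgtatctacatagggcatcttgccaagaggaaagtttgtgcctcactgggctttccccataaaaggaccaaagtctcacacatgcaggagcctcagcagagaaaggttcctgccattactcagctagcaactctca
The windows are chr17:27728902-27729201, chr2:154190568-154190867, chr2:154200130-154200429, chr12:35992675-35992974 and chr1:171535245-171535544 in that order. The forkhead letters searched on both strands were TGTTTAC, together with a first variant of it, TATTTAC, and another variant of it, TGTTTGC, which 11.2% of 32851 mouse promoter windows held and 3 of the 7 member windows held. In *Spdef* the match GTAAATA began 47 bases before the start. In *Bpifb1* GCAAACA began 43 bases before the first start and TATTTAC 110 bases before the second. The STAT6-type letters TTCNNNNGAA were in 7.0% of all windows and in 0 of the 7. The related STAT letters TTCNNNGAA were in 8.3% of all windows and in 1 of the 7, TTCCAGGAA in the second *Bpifb1* window, and the TATA letters TATAAA were in 13.6% and in 1 of the 7, the *Foxa3* window. A CREB-type motif, TGACGTC, was in 3.2% of windows and in 0 of the 7. No 2 of these motifs overlapped in a member window, and the motifs were chosen after these windows had been seen.

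The mucus genes rose together under CRE in both genotypes. All 10 members were called higher in CKO_CRE than in CKO_PBS (median log2 fold change 3.70), where 20.6% of all genes tested were called higher and 39.1% either way, and the median over all genes was 0.00. All 10 were also called higher in WT_CRE than in WT_PBS (median 2.90), where 28.6% of genes were called higher and 57.0% either way, with a median of 0.01. Levels are given as CPM, counts scaled to library size with TMM factors. Calls are genes whose Benjamini-Hochberg p in edgeR's quasi-likelihood test fell under 0.05. For every member, the lowest CRE library stood above the highest PBS library in both genotypes. The share of all genes so separated is not given here. Summed over the 10 members, the level was 1811, 1575 and 2061 CPM in CKO_CRE and 2438, 1779 and 2304 CPM in WT_CRE, against 66.8, 249.8 and 57.1 CPM in CKO_PBS and 239.7, 166.9 and 193.9 CPM in WT_PBS. These genes held 0.155% to 0.237% of each CRE library's counts and 0.00568% to 0.0251% of each PBS library's. In whole lung, more cells of a type and more RNA per cell cannot be told apart.

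**Figure D1:**
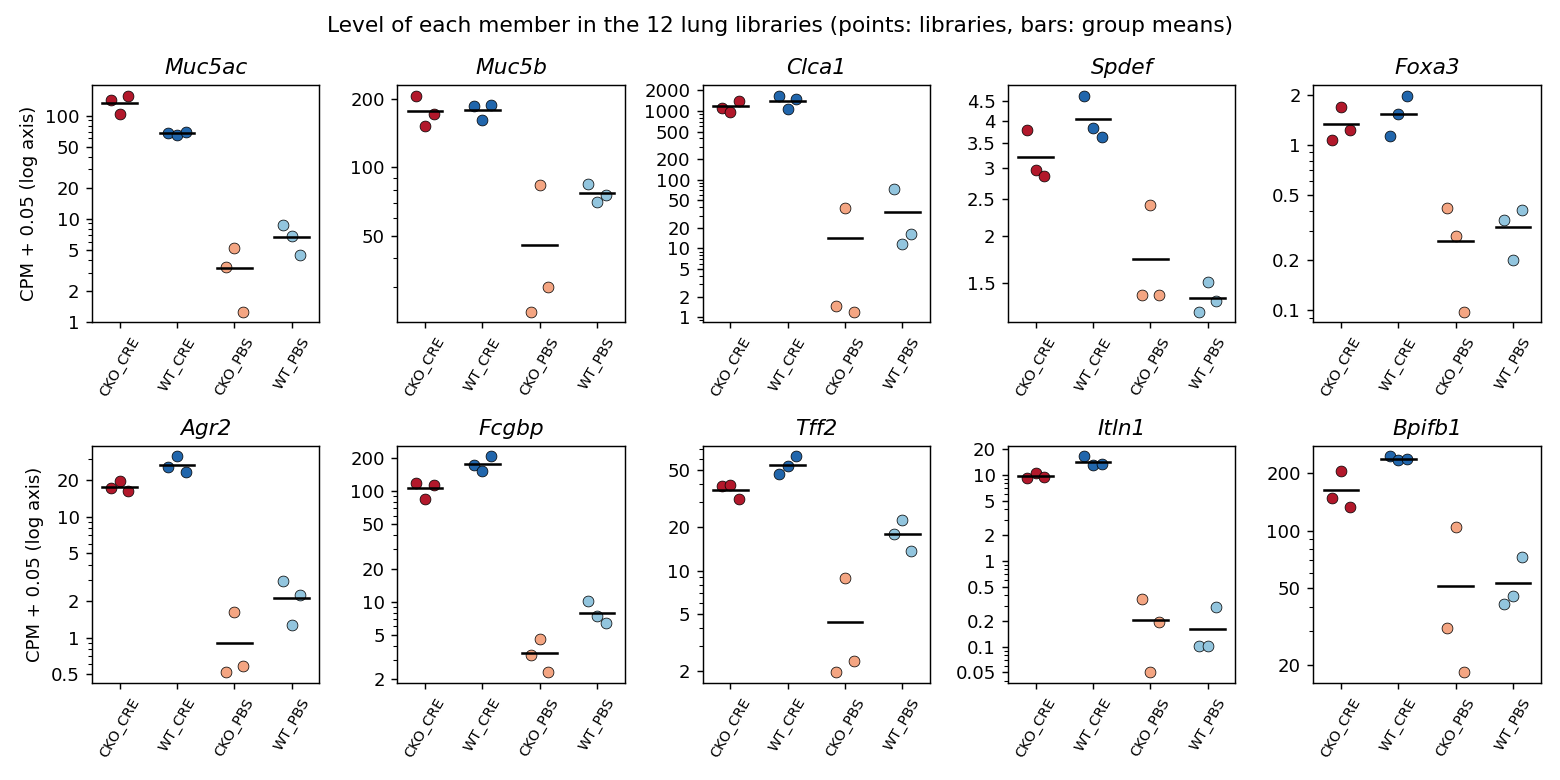
Level of each of the 10 members in every library, as CPM plus 0.05 on a log axis, with 3 points and a bar at the mean for each group. The CRE points of each genotype stand above its PBS points in all 10 panels, and for most members CKO_PBS replicate 2 is the highest CKO_PBS library.

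Under CRE, the 2 transcription factors had the lowest levels of the members. *Spdef*, the ETS factor required for goblet cell differentiation in the mouse airway, had 3.73, 2.92 and 2.82 CPM in CKO_CRE and 4.60, 3.77 and 3.58 CPM in WT_CRE, against 1.34, 2.36 and 1.35 CPM in CKO_PBS and 1.21, 1.46 and 1.30 CPM in WT_PBS. The CRE and PBS libraries of CKO were separated by little, since CKO_PBS replicate 2 was near the lowest CKO_CRE library. Its log2 fold change for CRE over PBS was 0.90 ± 0.26 in CKO (adjusted p = 0.0176) and 1.58 ± 0.27 in WT (adjusted p = 0.000443). Leaving out CKO_CRE replicate 1 (adjusted p = 0.0512), CKO_PBS replicate 1 (0.0643) or CKO_PBS replicate 3 (0.0716) ended the call in CKO. *Foxa3*, the forkhead factor that can induce goblet cell genes, had 1.02, 1.64 and 1.18 CPM in CKO_CRE and 1.07, 1.48 and 1.93 CPM in WT_CRE. Its PBS levels were 0.362, 0.231 and 0.0480 CPM in CKO_PBS and 0.303, 0.151 and 0.354 CPM in WT_PBS, which rest on 1 to 7 counts a library. It rose by log2 2.56 ± 0.52 in CKO (adjusted p = 0.00314) and by 2.46 ± 0.51 in WT (adjusted p = 0.00156).

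Of the gel-forming mucins, *Muc5ac* rose more than *Muc5b*. *Muc5ac* had 142.5, 103 and 156 CPM in CKO_CRE and 67.2, 65.2 and 69.1 CPM in WT_CRE, against 3.36, 5.17 and 1.20 CPM in CKO_PBS and 8.59, 6.70 and 4.36 CPM in WT_PBS. Every CKO_CRE library was above every WT_CRE library, while under PBS the genotypes overlapped. The rise for CRE over PBS was 41.0-fold in CKO (log2 5.36 ± 0.38, adjusted p = 7.47e-06) and 10.2-fold in WT (log2 3.35 ± 0.34, adjusted p = 2.51e-05). *Muc5b* had 206, 152 and 171 CPM in CKO_CRE and 185, 161 and 187 CPM in WT_CRE, against 23.3, 83.3 and 29.9 CPM in CKO_PBS and 84.8, 70.7 and 75.8 CPM in WT_PBS. It was higher under CRE by log2 1.95 ± 0.36 in CKO (adjusted p = 0.00188) and by log2 1.20 ± 0.35 in WT (adjusted p = 0.0118). The rise in CKO was log2 2.73 without CKO_PBS replicate 2. With sex as a covariate the *Muc5b* rise in WT was log2 0.96 (adjusted p = 0.0518) and no longer called. Under PBS, *Muc5b* made 40.2% of the members' summed CPM in CKO_PBS and 39.0% in WT_PBS, against 9.76% in CKO_CRE and 8.26% in WT_CRE.

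Per kilobase of exon, which allows the 2 mucins to be compared, *Muc5ac* stood at 1.06 ± 0.183 times the level of *Muc5b* in CKO_CRE (SD, n = 3), with 0.964, 0.946 and 1.27 in the 3 libraries. The ratio was 0.528 ± 0.0314 in WT_CRE, with 0.505, 0.563 and 0.514. In CKO_PBS it was 0.114 ± 0.0763 and in WT_PBS 0.118 ± 0.0329. The CKO_CRE ratios lay above all WT_CRE ratios, and the PBS ratios of the genotypes overlapped.

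**Figure D2:**
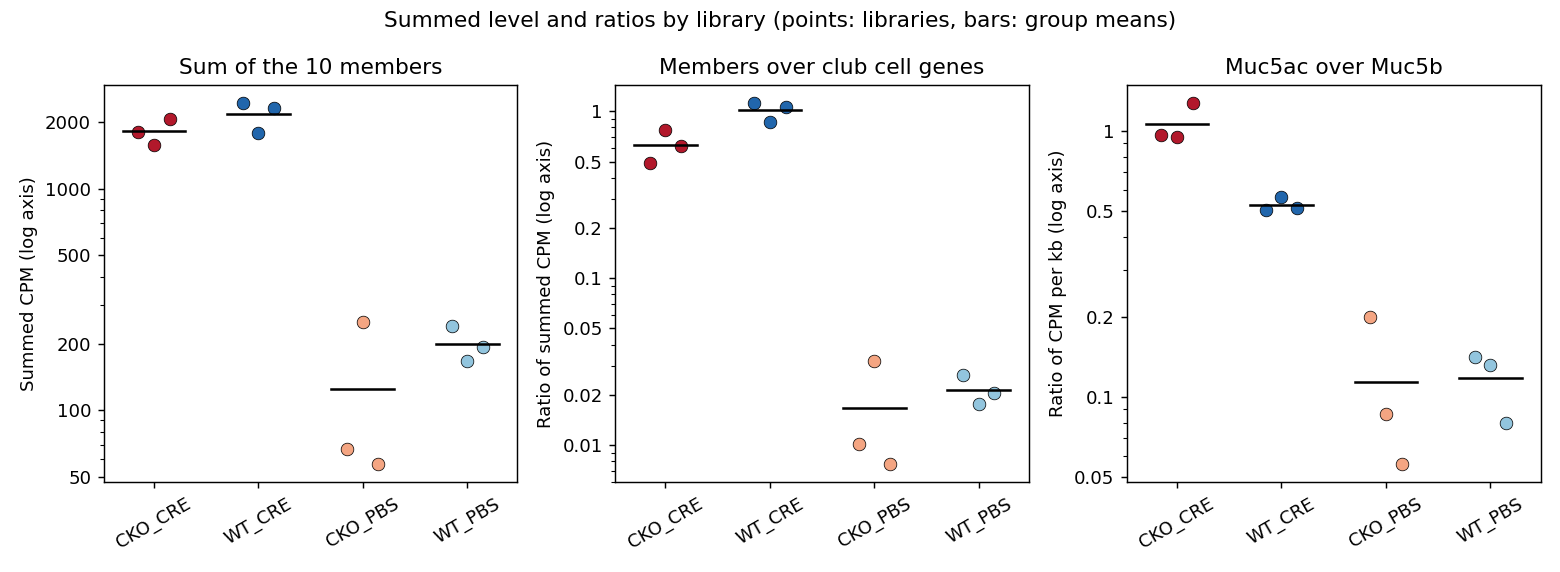
Sums and ratios by library on log axes: the summed CPM of the 10 members, that sum over the summed CPM of 18 club cell genes, and the ratio of *Muc5ac* to *Muc5b* in CPM per kilobase of exon. Points are libraries and bars are group means; in the right panel the CKO_CRE libraries lie between 0.946 and 1.27 and the WT_CRE libraries between 0.505 and 0.563.

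*Clca1*, a secreted metalloprotease that is a classical product of interleukin-13-stimulated airway epithelium, was the most abundant member under CRE. It had 1126, 956 and 1427 CPM in CKO_CRE and 1674, 1066 and 1504 CPM in WT_CRE, against 1.395, 39.4 and 1.15 CPM in CKO_PBS and 72.3, 11.5 and 16.4 CPM in WT_PBS. The PBS libraries differed among themselves far more than the CRE libraries did. *Clca1* was 83.1-fold higher under CRE in CKO (95% interval 13.4 to 517, adjusted p = 0.00217) and 42.3-fold higher in WT (7.44 to 240.2, adjusted p = 0.00191). These sizes turned on 1 PBS library each: the CKO value of log2 6.38 was 9.84 without CKO_PBS replicate 2, and the WT value of log2 5.40 was 6.66 without WT_PBS replicate 1. It made 64.0% of the members' summed CPM in CKO_CRE and 64.6% in WT_CRE, against 6.63% in CKO_PBS and 15.2% in WT_PBS.

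*Itln1*, a soluble lectin that binds microbial glycans, was nearly absent under PBS. It had 9.13, 10.3 and 9.52 CPM in CKO_CRE and 16.3, 12.8 and 13.3 CPM in WT_CRE. PBS libraries held 6, 0 and 3 counts in CKO_PBS and 1, 1 and 4 counts in WT_PBS. The fitted rise was log2 5.98 ± 0.47 in CKO (adjusted p = 1.51e-05) and log2 6.96 ± 0.49 in WT (adjusted p = 3.26e-06), and its size rests on these few PBS counts. It was log2 6.96 in CKO without CKO_PBS replicate 1, 5.38 without CKO_PBS replicate 2, and 7.95 in WT without WT_PBS replicate 3.

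*Fcgbp*, a large mucin-associated protein of mucus, and *Agr2*, a disulfide isomerase of the endoplasmic reticulum needed to fold mucins, also rose strongly. *Fcgbp* had 119, 85.1 and 114 CPM in CKO_CRE and 173, 151 and 205 CPM in WT_CRE, against 3.26, 4.62 and 2.26 CPM in CKO_PBS and 10.1, 7.40 and 6.42 CPM in WT_PBS. Its CKO libraries were below all WT libraries under each treatment. It rose by log2 4.97 ± 0.26 in CKO (adjusted p = 8.17e-07) and 4.47 ± 0.24 in WT (adjusted p = 4.22e-07). *Agr2* had 17.1, 19.6 and 16.2 CPM in CKO_CRE and 25.5, 31.4 and 23.5 CPM in WT_CRE, against 0.465, 1.57 and 0.528 CPM in CKO_PBS and 2.88, 1.21 and 2.18 CPM in WT_PBS. The rise was log2 4.33 ± 0.38 in CKO (adjusted p = 3.3e-05) and 3.68 ± 0.35 in WT (adjusted p = 1.62e-05), and in CKO 5.12 without CKO_PBS replicate 2.

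*Tff2*, a trefoil peptide of mucus, was already well expressed under PBS in WT but less so in CKO. *Bpifb1*, a secreted protein of the BPI fold family found in airway mucus, was well expressed under PBS in both genotypes. *Tff2* had 38.4, 39.5 and 31.6 CPM in CKO_CRE and 46.9, 52.8 and 62.0 CPM in WT_CRE, against 1.91, 8.78 and 2.31 CPM in CKO_PBS and 17.8, 22.4 and 13.7 CPM in WT_PBS. All CKO_PBS libraries were below all WT_PBS libraries. *Tff2* rose 8.34-fold in CKO (log2 3.06 ± 0.43, adjusted p = 0.000407) and 3.00-fold in WT (log2 1.58 ± 0.39, adjusted p = 0.00443). Without CKO_PBS replicate 2 the CKO rise was log2 4.11. *Bpifb1* had 148, 205 and 133 CPM in CKO_CRE and 243, 233 and 235 CPM in WT_CRE, against 31.1, 104 and 18.2 CPM in CKO_PBS and 41.6, 45.3 and 73.1 CPM in WT_PBS. Its rise was log2 1.66 ± 0.48 in CKO (adjusted p = 0.018) and 2.15 ± 0.49 in WT (adjusted p = 0.00285). The call for *Bpifb1* in CKO was lost without CKO_PBS replicate 1 (adjusted p = 0.0679), and without CKO_PBS replicate 2 the rise was log2 2.72.

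The order of the members by level per kilobase of exon differed between CRE and PBS lungs. In CKO_CRE the means were 309.7 CPM per kb for *Clca1*, 62.5 for *Tff2*, 44.8 for *Bpifb1*, 13.6 for *Agr2*, 12.4 for *Muc5ac*, 11.8 for *Muc5b*, 10.1 for *Fcgbp*, 8.47 for *Itln1*, 1.37 for *Spdef* and 0.627 for *Foxa3*. From *Agr2* down to *Itln1*, each gene overlapped the next in that order among its 3 libraries, as did *Tff2* and *Bpifb1*. In WT_CRE the first 4 genes kept those places, and *Muc5ac*, at 6.25 CPM per kb, stood at place 8, below *Fcgbp* at 16.8, *Itln1* at 12.4 and *Muc5b* at 11.9 and with no overlap with *Muc5b*. *Bpifb1* led in CKO_PBS at 14.2 CPM per kb and overlapped *Tff2* at 7.42. *Tff2* led in WT_PBS at 30.7 CPM per kb, with no overlap with *Bpifb1* at 14.7.

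**Figure D3:**
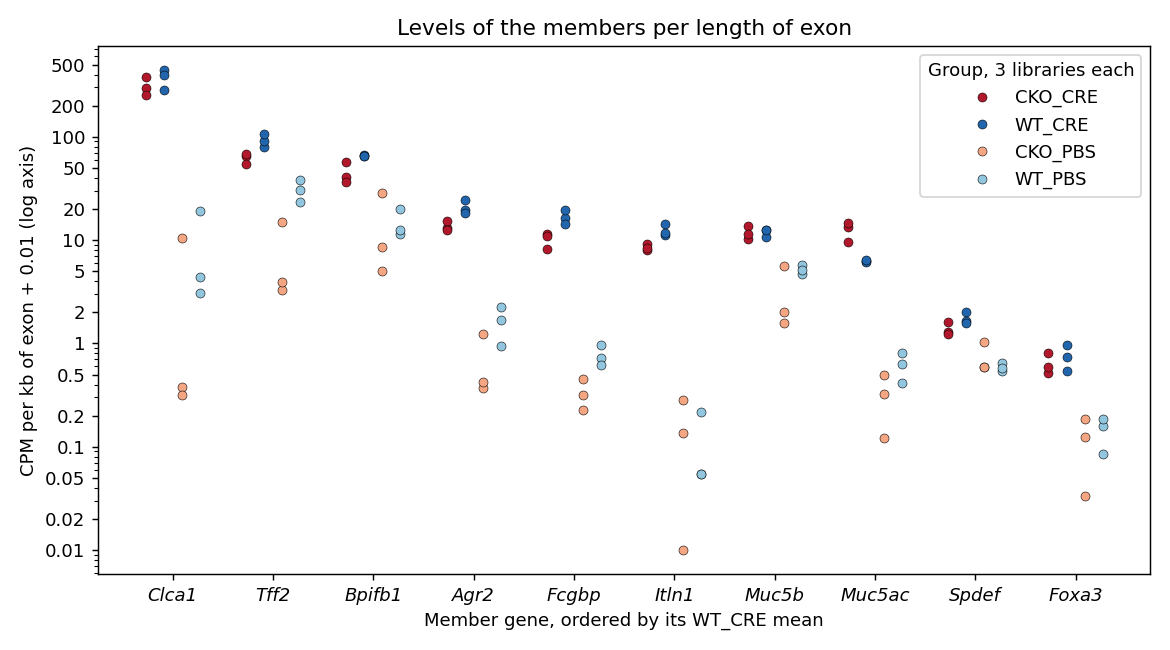
Level of each member per kilobase of exon (CPM per kb plus 0.01, log axis) in every library, with genes ordered by the WT_CRE mean. *Clca1* leads in both CRE groups, at means of 309.7 CPM per kb in CKO_CRE and 374.6 in WT_CRE, and *Foxa3* is last in both.

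Between genotypes, most members had lower mean levels in CKO, and none was called different. Under CRE, 0 of 10 members were called in edgeR, where 0.549% of all genes were called higher, 0.366% lower and 0.916% either way. An unadjusted p below 0.05 was found for 2 members and for 3238 of the 17473 genes tested. DESeq2 called 1 member and limma-voom with quality weights 6. Both tools also called more of all genes than edgeR, and limma-voom far more, with the counts given in the closing section. The member counts from these tools are therefore a description only. The median of the members was log2 -0.44, against 0.01 over all genes, and 9 of 10 were below 0. The exception was *Muc5ac*, at log2 0.99 ± 0.30 CKO over WT (unadjusted p = 0.00632, adjusted p = 0.134). *Fcgbp* had the lowest value, log2 -0.74 ± 0.20 (unadjusted p = 0.00358, adjusted p = 0.113). CKO_CRE libraries did not overlap WT_CRE libraries for 6 members: *Muc5ac* was above, and *Agr2*, *Fcgbp*, *Tff2*, *Itln1* and *Bpifb1* were below. The share of all genes without such overlap is not given here, so this count is a description only.

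Those genotype values under CRE turned on 1 library and on the tool. Without CKO_CRE replicate 2, *Muc5ac* was called higher in CKO (log2 1.15, adjusted p = 0.00907) and *Fcgbp* lower (log2 -0.60, adjusted p = 0.0339). The number of all genes called higher in that fit was 2829, against 96 with every library in. DESeq2 gave *Fcgbp* an adjusted p of 0.0237. In limma-voom, *Muc5ac* was called higher and *Spdef*, *Agr2*, *Fcgbp*, *Tff2* and *Itln1* lower. *Muc5b* did not differ detectably, with log2 -0.01 and a 95% interval from -0.77 to 0.74. The interval of *Clca1* in the main fit was wide, log2 -2.34 to 1.79. Its SE was 0.95 in that fit and 0.22, at log2 -0.27, when only the CRE groups were fitted. For *Muc5b* the SE was 0.35 in the main fit and 0.14 with only the CRE groups. The main fit estimates the spread from all 12 libraries, so these intervals include the spread of the PBS libraries.

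**Figure D4:**
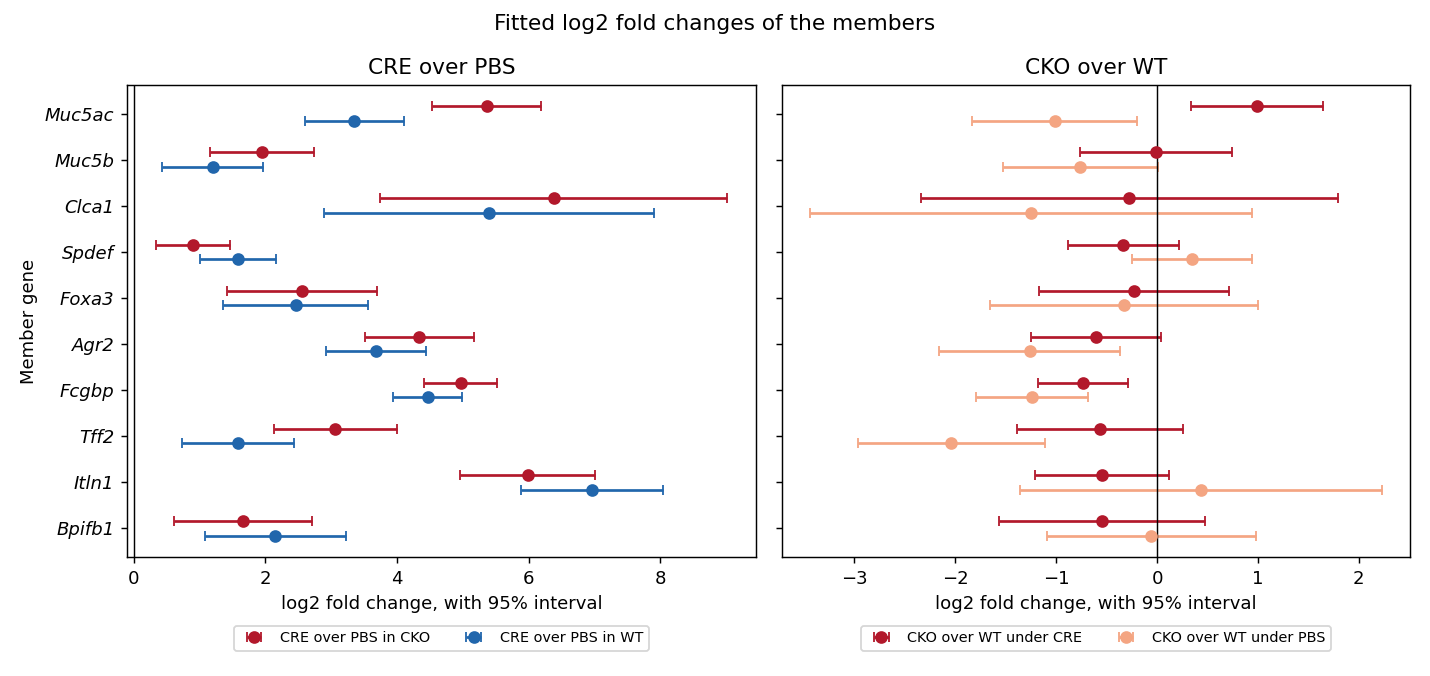
Fitted log2 fold changes of the 10 members with 95% intervals, for CRE over PBS in each genotype (left) and for CKO over WT under each treatment (right). All left intervals lie above 0, and on the right *Muc5ac* is the only member whose interval lies above 0 under CRE.

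Under PBS, 0 of 10 members were called between genotypes, against 0.0401% of all genes higher, 0.0687% lower and 0.109% either way. An unadjusted p below 0.05 was found for 4 members and for 930 of the 17473 genes tested. DESeq2 and limma-voom called *Fcgbp* and *Tff2*, and both also called more of all genes than edgeR. The members' median was log2 -0.89 CKO over WT, with 0.00 over all genes, and 8 of 10 were below 0. *Tff2* was lowest, at log2 -2.04 ± 0.42 (adjusted p = 0.14), followed by *Agr2* at -1.26 ± 0.41 (adjusted p = 0.578), *Clca1* at -1.25 ± 1.00 (adjusted p = 1) and *Fcgbp* at -1.24 ± 0.26 (adjusted p = 0.137). *Fcgbp* and *Tff2* were the 2 members whose CKO_PBS libraries lay wholly below the WT_PBS libraries. No share of all genes so separated is given here either.

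One CKO_PBS library decided much of this. CKO_PBS replicate 2, the female library of the PBS groups, held 249.8 CPM of the members, against 66.8 and 57.1 CPM in the other two. Replicates 1 and 3 were below all WT_PBS libraries for 7 and 8 of the 10 members, and replicate 2 for 3. The share of all genes so placed in each library is not given here, so these counts are a description only. With replicate 2 left out, *Muc5b* was called lower in CKO (log2 -1.54, adjusted p = 0.00218), as was *Tff2* (log2 -3.09, adjusted p = 0.000291). Without it *Clca1* was at log2 -4.71 (adjusted p = 0.058), *Fcgbp* at -1.54 (adjusted p = 0.0562) and *Agr2* at -2.05 (adjusted p = 0.0806). In the other direction, *Clca1* was at log2 0.012 without WT_PBS replicate 1, which held 72.3 CPM of it. The part of sex in these values was not tested within CKO_PBS, where 1 library was female. Replicate 2 also had the highest ratio of the members to 18 club cell genes in CKO_PBS, 0.0321, against 0.0102 and 0.00768 in the other CKO_PBS libraries and 0.0264, 0.0176 and 0.0206 in WT_PBS.

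The CRE response itself did not pass the test of a difference between genotypes for any member. In that test 0 of 10 were called, against 0.0343% of all genes higher, 0.0114% lower and 0.0458% either way. An unadjusted p below 0.05 was found for 2 members and for 1801 of the 17473 genes tested. *Muc5ac* came nearest, its log2 response being 2.01 ± 0.48 larger in CKO (unadjusted p = 0.0013, adjusted p = 0.244). DESeq2 called *Muc5ac* (adjusted p = 0.0106), and so did the edgeR fit without CKO_CRE replicate 2 (log2 2.17, adjusted p = 0.00978). *Tff2* followed, with 1.48 ± 0.56 (unadjusted p = 0.0226, adjusted p = 0.424). Of the 10 members, 7 had the larger response in CKO, and *Itln1*, *Spdef* and *Bpifb1* in WT. Of these signs 4 turned when 1 library was left out: *Bpifb1* without CKO_PBS replicate 2 (0.57), *Clca1* without WT_PBS replicate 1 (-0.28), *Itln1* without CKO_PBS replicate 1 (0.0029), and *Foxa3* without any of CKO_CRE replicate 2, WT_CRE replicate 1, CKO_PBS replicate 3, WT_PBS replicate 1 or WT_PBS replicate 3 (lowest -0.36). limma-voom called *Muc5ac*, *Muc5b* and *Tff2*. For this difference too, DESeq2 called more of all genes than edgeR, and limma-voom far more, with the counts given in the closing section. The member counts from these tools are again a description only.

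The patterns across the 12 libraries were compared by the root mean square difference of centred log2 CPM. Among the members, *Fcgbp* (0.67) and *Agr2* (0.77) were closest to *Muc5ac*, and *Bpifb1* (0.52) and *Spdef* (0.58) to *Muc5b*. Among 14208 other genes with at least 1 CPM in their highest group, the 5 closest to *Muc5ac* were *Cd209e* (0.64), *Fer1l6* (0.70), *Adra2a* (0.77), *Capn9* (0.80) and *Ccl11* (0.84). Those closest to *Muc5b* included *Clec10a* (0.34), *Gpr176* (0.37), *Mgl2* (0.42) and *Neb* (0.42).

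Most other mucins were barely present. Of 11 listed, 5 passed the filter. The membrane mucins *Muc1* and *Muc4* were called higher under CRE in both genotypes: *Muc4* averaged 89.9 ± 18.2 CPM in CKO_CRE, 84.3 ± 3.28 in WT_CRE, 37.2 ± 6.96 in CKO_PBS and 28.0 ± 0.816 in WT_PBS. *Muc1* averaged 248 ± 4.14, 238 ± 21.8, 200.2 ± 12.5 and 171 ± 10.8 CPM in the same groups. Its call in CKO was lost without CKO_PBS replicate 2 (adjusted p = 0.0508) or replicate 3 (0.0814). *Muc16* and *Muc20* were called lower under CRE in WT (adjusted p = 0.0277 and 0.0433). Both calls were lost with sex as a covariate (0.177 and 0.107), and without WT_CRE replicate 2 (0.105), WT_PBS replicate 1 (0.0655) or WT_PBS replicate 3 (0.0633) for *Muc16*. Leaving out any of 7 libraries ended the call of *Muc20*, with adjusted p from 0.0517 to 0.169. *Muc2*, the gel-forming mucin of the gut and a neighbour of *Muc5ac*, averaged at most 0.311 CPM in any group, and *Muc6*, its neighbour on the other side, at most 0.514 CPM.

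Relatives of the members moved apart. Of 11 tested, *Clca3a1*, *Clca3a2* and the ETS factor *Ehf* were called higher under CRE in both genotypes, and the forkhead factor *Foxa1* lower in both. *Clca3a2* averaged 2.07 ± 2.05 CPM in CKO_CRE and 6.42 ± 1.70 in WT_CRE, against 0.0634 ± 0.0700 in CKO_PBS and 0.0336 ± 0.0291 in WT_PBS. In WT, the ETS factors *Elf3* and *Elf5* were also called higher and *Agr3*, the neighbour and relative of *Agr2*, lower (log2 -1.51 ± 0.44, adjusted p = 0.0117). *Elf5* lost its call without WT_CRE replicate 1 (adjusted p = 0.141) or WT_PBS replicate 2 (0.122). *Foxa2*, the forkhead factor that restrains goblet cell differentiation in the mouse lung, was not called (log2 -0.05 ± 0.13 in CKO and -0.28 ± 0.13 in WT).

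Genes for mucin glycosylation, folding and granule release changed in both directions. Of 42 tested, 16 were called higher and 6 lower under CRE in CKO, and 15 higher and 11 lower in WT, against 20.6% higher and 18.5% lower of all genes in CKO and 28.6% and 28.4% in WT. The largest rises in CKO were of *Slc26a4*, the anion exchanger pendrin (log2 5.10 ± 0.29), *Ern2*, a stress sensor of mucous cells (5.09 ± 0.72, and 5.89 without CKO_PBS replicate 2), and *Fut2*, a fucosyltransferase (2.41 ± 0.29). In WT they were of *Slc26a4* (5.76 ± 0.30), the sialyltransferase *St6galnac1* (3.26) and *Fut2* (3.16 ± 0.30). *Slc26a4* averaged 450.1 ± 114 CPM in CKO_CRE and 709.97 ± 84.7 in WT_CRE, against 13.1 ± 3.27 in CKO_PBS and 13.03 ± 4.47 in WT_PBS. The call of *St6galnac1* was lost without WT_CRE replicate 3 (adjusted p = 0.103) and without any WT_PBS library in turn (0.0535 to 0.0722). It was also lost with sex as a covariate (log2 2.19, adjusted p = 0.136). The largest falls in CKO were of the glycosyltransferase *B3gnt6* (log2 -1.44 ± 0.43), whose call was lost without CKO_CRE replicate 1 or 3 or CKO_PBS replicate 3 (adjusted p 0.0544 to 0.0733), and of *Sytl2* and *Sytl4*, which bind granule RAB proteins. In WT the largest falls were of *Galnt2* (log2 -1.27), *Sytl2* (-1.06) and *B3gnt6* (-1.03), and the call of *Galnt2* was lost without WT_PBS replicate 2 (adjusted p = 0.0794). That of *B3gnt6* in WT was lost when any of 9 of the 12 libraries was left out (adjusted p from 0.0520 to 0.136). It was also lost in DESeq2 (0.0752), with sex as a covariate (0.154), without the filter (0.129) and with a replicate block (0.0634).

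Regulators upstream of the goblet state were split as well. Of 24 tested, 7 were called higher and 7 lower under CRE in CKO, and 9 higher and 11 lower in WT. Shares over all genes were 20.6% higher and 18.5% lower in CKO, and 28.6% and 28.4% in WT. The cytokine gene *Il13* averaged 3.07 ± 1.08 CPM in CKO_CRE and 12.9 ± 3.16 in WT_CRE, against 0.0616 ± 0.107 in CKO_PBS and 0.126 ± 0.0438 in WT_PBS. It was the only regulator called between genotypes under CRE, lower in CKO by log2 -2.07 ± 0.38 (adjusted p = 0.028). The call was lost without CKO_CRE replicate 1 or 3 or any single WT_CRE or WT_PBS library, with adjusted p from 0.0516 to 0.110. *Il13ra2*, the decoy receptor of the cytokine, averaged 3.92 ± 2.58 CPM in CKO_CRE and 15.0 ± 3.29 in WT_CRE, against 0.110 ± 0.147 in CKO_PBS and 0.0505 ± 0.0875 in WT_PBS. *Alox15*, a lipoxygenase induced by interleukin-13, was at 46.6 ± 6.41 CPM in CKO_CRE and 82.7 ± 21.3 in WT_CRE, against 2.15 ± 0.493 and 1.53 ± 0.515 CPM under PBS in CKO and WT. The largest falls were of the epithelial factor *Klf4* in both genotypes, with *Egfr* and *Notch1* in CKO and *Tgfa* and *Notch1* in WT. *Foxm1*, known to drive goblet cell change in allergen-exposed mouse airway, was higher in both (log2 1.64 ± 0.20 and 1.93 ± 0.20). It was picked after its values were seen, and whole lung does not show which cells it rose in.

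Club cell genes fell under CRE in both genotypes, and other epithelial markers changed less evenly. Of 18 club cell genes, 1 was called higher and 12 lower under CRE in CKO, and 0 higher and 14 lower in WT, with *Pon1* and *Scgb3a2* among the strongest falls in both. Over all genes, 20.6% were called higher and 18.5% lower in CKO, and 28.6% and 28.4% in WT. The 1 that was called higher, *Gsto1*, lost that call without CKO_PBS replicate 1 or 3 (adjusted p = 0.0743 and 0.0856). Between genotypes under CRE, 0 of the 18 were called. Without CKO_CRE replicate 2, 12 were called higher in CKO, and DESeq2 called 7. Both fits also called far more of all genes than the main fit, so these club cell counts are a description only. The counts over all genes are given with the genotype values under CRE and in the closing section. Their summed level ranged from 2039 to 3697 CPM in CKO_CRE and from 2058 to 2180.3 CPM in WT_CRE, against 6576 to 7788 CPM in CKO_PBS and 9088 to 9468 CPM in WT_PBS. Relative to it, the members' sum was 0.628 ± 0.141 in CKO_CRE and 1.01 ± 0.133 in WT_CRE, against 0.0166 ± 0.0134 in CKO_PBS and 0.0215 ± 0.00444 in WT_PBS (SD, n = 3). Of 15 ciliated cell genes, 2 were called lower in CKO, where 18.5% of all genes were, and 12 in WT, where 28.4% were. Their summed level ranged from 313 to 544 CPM in CKO_CRE, 331 to 390.4 CPM in WT_CRE, 496 to 718 CPM in CKO_PBS and 742 to 800.5 CPM in WT_PBS. Genes shared by all epithelia were called in both directions in WT. Of 15, 3 were called higher in CKO, near the 20.6% of all genes, and 6 higher and 4 lower in WT. Their sum ranged from 1463.5 to 2127 CPM in CKO_CRE, 1564.5 to 1665 in WT_CRE, 1378 to 1467 in CKO_PBS and 1321 to 1401 in WT_PBS. Both keratins called in CKO, *Krt8* and *Krt18*, were called in WT too, and *Krt8* lost its call in CKO without CKO_PBS replicate 1 or 3 (adjusted p = 0.0648 and 0.0599). The part of these shifts in the members' levels was not tested.

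Lists of gland, stomach and gut genes were partly at 0 and partly held genes that the lung also expresses. Of the 12 genes listed for submucosal glands, 7 were tested, and the defining genes *Prol1* and *Bpifb2* were at 0 counts in all libraries. Of these 7, 2 were called higher and 2 lower in CKO, and 2 higher and 4 lower in WT. For this and the lists that follow, the shares over all genes were 20.6% higher and 18.5% lower in CKO. In WT they were 28.6% and 28.4%. *Aqp5*, a water channel of glands and alveolar cells, was called higher in CKO than in WT under CRE (222 and 168 CPM, log2 0.40 ± 0.08, adjusted p = 0.0438), and 11 of the 12 fits that each left out 1 library lost that call. The listed sum, which includes genes of other lung cells, ranged from 442 to 598 CPM in CKO_CRE, 384 to 465 in WT_CRE, 587 to 828 in CKO_PBS and 601 to 635 in WT_PBS. *Gkn1* and *Anxa10* of gastric epithelium and *Cdx2* of gut epithelium were at 0 throughout. The gut goblet cell genes *Zg16* and *Tff3* averaged at most 0.449 and 0.138 CPM, both in WT_PBS. The gut list as a whole summed to 197 to 355 CPM in CKO_CRE, 171 to 206 in WT_CRE, 291 to 540.1 in CKO_PBS and 333 to 367 in WT_PBS, nearly all of it *Lyz1* and *Nupr1*, and the gastric list to 4.23 to 4.67, 5.40 to 9.02, 2.40 to 3.88 and 2.63 to 2.89 CPM in the same groups. *Retnlb*, a gut goblet product also induced in inflamed airway, averaged 2.36 ± 1.22 CPM in CKO_CRE and 5.22 ± 1.71 in WT_CRE, against 0.209 ± 0.114 in CKO_PBS and 0.0196 ± 0.0340 in WT_PBS, and was called higher under CRE in both genotypes. Its WT_PBS mean is under the level of 3 counts in a library, so no fold is given for WT; in CKO it was log2 3.45 ± 0.54. Of the gastric list 2 genes were tested, with 0 called in CKO and 2 higher in WT, and of the gut list 3, with 2 higher in CKO and 2 higher and 1 lower in WT. Of 6 basal cell genes, 3 were called higher and 1 lower in CKO and 4 higher in WT, *Trp63* among the higher in both. Of 10 mesothelial genes, 3 were lower in CKO and 5 in WT, and of 10 alveolar type 2 genes 2 were higher and 4 lower in each genotype. Of 11 genes of alternatively activated macrophages, 10 were called higher in each, and *Ccl24*, an eosinophil chemokine, was lower in CKO_CRE than in WT_CRE (117 ± 86.5 and 566 ± 134 CPM, log2 -2.27 ± 0.40, adjusted p = 0.0234). Leaving out CKO_CRE replicate 3 (adjusted p = 0.0849), WT_CRE replicate 1 (0.103) or WT_CRE replicate 2 (0.0626) ended the *Ccl24* call, and the value was log2 -3.07 without CKO_CRE replicate 2.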

How the data were processed

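The deposited table holds the authors' read counts for 54532 Ensembl identifiers in 12 lung libraries. The labels' protocols name an RNeasy extraction, oligo-dT selection and the NEBNext Ultra RNA kit. fastp, STAR and mm10 are named in the submitters' processing notes without versions. How reads were counted, with which strand setting and annotation, is not given in the sources used here. Positions and exon lengths came from GENCODE M21, which matched 54495 identifiers.

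The main test was the edgeR 4.0.16 quasi-likelihood test in R 4.3.3, with TMM factors, filterByExpr and a mean for each of the 4 groups estimated from all 12 libraries. Adjustment (Benjamini-Hochberg) ran over all 17473 tested genes, and every adjusted p is from this fit unless another tool is named. Changes are log2 fold changes ± SE, and levels are means ± SD of 3 libraries in CPM computed here. At totals of 16250674 to 21559210 counts, 3 counts equal 0.139 to 0.189 CPM, and intervals use a 95% level. Alternatives were DESeq2 1.42.0, its size factors in edgeR, limma-voom with quality weights (limma 3.58.1) and no filter. Others were a replicate block, sex as a covariate, only the groups compared, and each library left out. Every limma-voom result given is from the fit with quality weights, so it differed from the main fit in these weights as well as in the tool.

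The members and the 14 companion lists were chosen with earlier results of these data known. All members are named. From a companion list, up to 3 called genes with the strongest increase and up to 3 with the strongest decrease per comparison could be named, and any of the other mucins and relatives. *Foxm1* and the list genes given for their level were named outside that rule, after their values were seen. Same-numbered libraries were not treated as pairs. Some genes that the rule would name are not reported here.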

Additional observations from a re-analysis of the deposited data

How the results depend on the processing

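Over the 10 members, the CRE response kept its call and direction in 184 of 190 alternative fits in CKO and 189 of 190 in WT, with 0 reversed. With each library left out, 8 to 10 members were called in CKO and 10 in WT; in the fit of only the groups compared, *Spdef* (adjusted p = 0.0708) and *Bpifb1* (0.0759) lost their call in CKO, and over all genes 2133 were called higher and 1679 lower there. The geometric mean in place of the sum put the CRE response at log2 3.53 in CKO and 2.92 in WT, against 4.20 and 3.44 for the sum, and CKO over WT at -0.27 under CRE and -0.88 under PBS, against -0.25 and -1.01. Between genotypes the counts depended on the tool. Under CRE, DESeq2 called 537 genes higher and 301 lower, with 1 member lower; limma-voom 4011 and 3634, with 1 member higher and 5 lower; no filter 488 and 203, with 1 member each way (*Muc5ac*, adjusted p = 0.0142, and *Fcgbp*, 0.0172); and only the groups compared 19 and 10. Under PBS, DESeq2 called 55 higher and 59 lower, limma-voom 54 and 92 and no filter 53 and 36, each with 2 members lower, and only the groups compared called 30 and 44. For the difference of response, DESeq2 called 82 higher and 46 lower with 1 member higher, limma-voom 2527 and 1844 with 3, no filter 60 and 21 with 1, and sex as a covariate 1 and 1. The cause of these changes was not tested. The labels state no pairing of libraries by replicate number. Correlations of same-numbered deviations ran from -0.0232 to 0.176, which cannot show whether same-numbered libraries were handled together. The fit with a replicate block called 0 genes higher and 0 lower for the difference of response and changed no member's call. *Muc5b* under CRE changed sign without the filter (0.000768) and with sex as a covariate (0.00313).

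Leaving out 1 library at a time, all genes called ranged from 22 to 2829 higher and 16 to 2283 lower under CRE, 4 to 20 and 8 to 33 under PBS, 2602 to 4119 and 2165 to 3659 for the response in CKO, 4241 to 5424 and 4210 to 5445 in WT, and 0 to 1564 and 0 to 1096 for the difference. Members called ranged from 0 to 1 each way under CRE, 0 to 2 lower under PBS and 0 to 1 higher for the difference. Signs changed for *Muc5b* (-0.14 to 0.086) and *Foxa3* (-0.44 to 0.0045) under CRE, for *Bpifb1* (-1.11 to 0.35), *Clca1* (-4.71 to 0.012), *Foxa3* (-0.89 to 0.14) and *Itln1* (-0.55 to 1.42) under PBS, and for *Bpifb1* (-0.90 to 0.57), *Clca1* (-0.28 to 4.44), *Foxa3* (-0.36 to 0.67) and *Itln1* (-1.97 to 0.0029) in the difference. Alternatives for the companion genes and lists were chosen after seeing the data; with only the groups compared, *Muc1*, *Clca3a1*, *Foxa1*, *Notch1*, *Gsto1*, *Krt8*, *Krt18* and *Cldn4* lost their call in CKO (adjusted p 0.0515 to 0.0851), *B3gnt6* in WT (0.0562), and *Il13* (0.0823), *Aqp5* (0.300) and *Ccl24* (0.222) between genotypes under CRE.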
